A study of Mus musculus with 16 samples.

Results

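Amino acid transporters are the carriers that move free amino acids, and in a few cases related small molecules, across the membranes of the kidney tubule and its organelles. They were taken as every gene of the solute carrier families Slc1, Slc3, Slc6, Slc7, Slc36, Slc38 and Slc43 in the gene count table, without the betaine and taurine carriers of family Slc6, without antisense and pseudogene entries, and with at least 100 counts summed over 16 libraries. Of 57186 genes in the table, 61 symbols matched and 49 passed this minimum. The other 12 had between 0 and 83 counts in all and were not tested, among them Slc6a2 and Slc6a3, the noradrenaline and dopamine carriers, and Slc38a5 and Slc7a14. All 49 members entered the tests.

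The total RNA came from kidneys of 16 male mice aged 16 weeks, all Elmo1H/H, a genotype with raised expression of Elmo1, on a C57BL/6J background. Their labels name 4 groups of 4 libraries, each a biological replicate: non-diabetic untreated (ND_C) and non-diabetic given vitamin B12 (ND_B12), both Elmo1H/HIns2+/+, and diabetic untreated (D_C) and diabetic given B12 (D_B12), both Elmo1H/HIns2Akita/+. Ins2Akita is an insulin gene variant whose misfolded product kills pancreatic beta cells, so that the mice lack insulin and become hyperglycemic. B12 was given in drinking water at 10 mg/kg per day from 8 weeks of age, for 16 weeks by the labels and for 8 weeks by the methods. No library came from a mouse with the normal Elmo1 level, so each comparison holds for the Elmo1H/H background only.

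The proximal tubule takes back nearly all filtered amino acids. Carriers of the luminal brush border bring them into the cell together with sodium or in exchange for other amino acids, and carriers of the basolateral membrane pass them on to the blood or, as for glutamine, also take them up from it. Glutamine feeds the formation of ammonia, by which the kidney excretes acid. Several members are known targets of the transcription factor ATF4, which cells raise when amino acids run short, and others sit in the lysosome and report its amino acid content to growth signaling.

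Totals per library ran from 65271308 to 91771136 counts, of which the 49 members took between 0.402% and 0.498%. Before any result is given, the group labels need a caution. For 172 genes that are no members, the group means published with the study were set against the mean normalized counts of all 1820 possible sets of 4 libraries. Each published mean matched 1 set to within a median log2 difference of 0.000568 to 0.00567, and no other set came closer than 0.0337. By this match 5 libraries were in their labelled group and 11 in another, and the genotype differed for 2, D_C 1 and ND_B12 4. All 4 libraries labelled D_B12 matched the published D_C, and D_C 2, 3 and 4 matched the published D_B12. Groups and directions below are those of the labels. Without D_C 1 and ND_B12 4, diabetes over both treatments has the same genotypes by both sources. It is therefore given with 16 and with 14 libraries. The sign of every B12 difference among diabetic kidneys depends on which source is right. So do the groups compared for diabetes within a treatment, for B12 in non-diabetic kidneys and for the interaction, also with 14 libraries. ND_C 3 and ND_B12 1 would trade labels by the match. The libraries also carry a date in their names, which in days after the earliest was 0 to 14 for ND_C, 14 to 21 for ND_B12, 21 to 58 for D_C and 63 to 111 for D_B12. Only 1 date held both genotypes by the labels (ND_B12 2, 3 and 4 with D_C 1), and none held both D_C and D_B12, so date and group can hardly be told apart.

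Levels were compared between genes as normalized counts (estimated counts after division by a size factor of each library) per kb of exon. Slc7a13, a cystine and acidic amino acid carrier of the last proximal segment, stood highest with 22436 ± 5827 per kb (SD, n = 16). Next came Slc3a1, the heavy chain that carries cystine transporters to the brush border, with 7899 ± 712, and Slc6a18 and Slc6a19, luminal carriers of glycine and of neutral amino acids, with 6841 ± 792 and 6025 ± 2015. These neighbours overlapped within their SD, and Slc7a13 lay above all of them. The creatine carrier Slc6a8, Slc6a20b and the glutamate carrier Slc1a1 followed with 4169 ± 540.0, 2964 ± 296 and 2814 ± 136 per kb. Slc7a9, the light chain that pairs with Slc3a1, had 2466 ± 459. The basolateral heavy chain Slc3a2 had 2218 ± 314, and its light chain Slc7a8 2046 ± 376. Slc43a2, a basolateral exit route for large neutral amino acids, had 1912 ± 391 and the lysosomal carrier Slc36a1 1727 ± 174. At the low end, Slc7a11, which exchanges cystine for glutamate, and Slc7a10 had 1.54 ± 0.497 and 1.47 ± 1.68 per kb. Of the 49 members, 29 had a mean of at least 1000 normalized counts and 8 had fewer than 50.

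**Figure D1:**
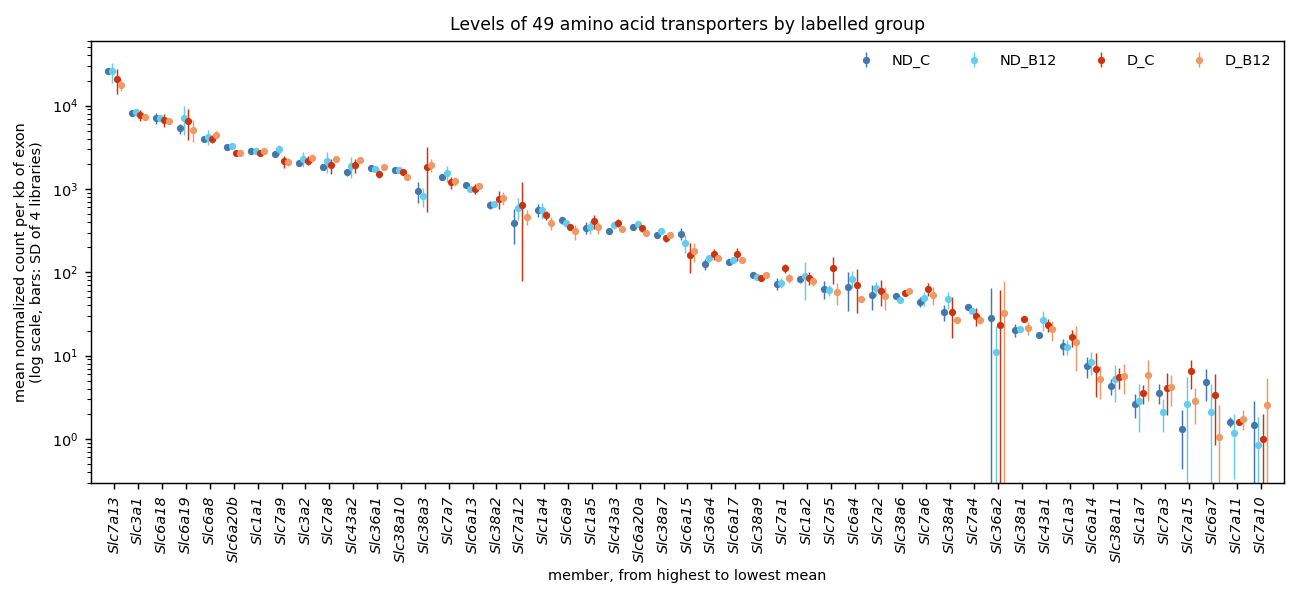
Mean normalized count per kb of exon (log axis) of each of the 49 members in the 4 labelled groups, ordered by the mean over 16 libraries; bars are the SD of 4 libraries, and lower bars that reach past the axis are cut by it. The levels span from 22436 per kb for Slc7a13 to 1.47 for Slc7a10, and the 4 groups lie close together for most members.

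Promoter sequence was read for each member as the 250 bases before the start of its canonical transcript (GRCm39, GENCODE vM39). Both strands were searched for TGATGNAA, the core of the amino acid response element bound by ATF4, for TGACNNNGC, the core of the antioxidant response element, and for CACGTG, the E-box bound by clock proteins. No matches within a member overlapped. TGATGNAA was found in 2 of 49 members (4.08%, against 2.22% of 15878 promoters of tested coding genes), TGACNNNGC in 2 (4.08% against 10.5%) and CACGTG in 4 (8.16% against 7.2%). These shares are a description, and a letter match is not a binding site. Printed here are the windows of Slc38a3, Slc7a9, Slc6a20b and Slc7a1, which are among the members called for diabetes below. Added are Slc7a5, singled out after its values were seen, and both members with the ATF4 core, Slc7a11 and Slc38a1. Windows of the other called members are not printed. The printed windows are given 5′ to 3′ on the gene's strand, with matched letters in capitals. They lie at chr9:107545182-107545431 (minus strand), chr7:35148212-35148461 (plus), chr9:123461631-123461880 (minus), chr5:148336849-148337098 (minus), chr8:122634434-122634683 (minus), chr3:50398064-50398313 (minus) and chr15:96540279-96540528 (minus).
Slc38a3: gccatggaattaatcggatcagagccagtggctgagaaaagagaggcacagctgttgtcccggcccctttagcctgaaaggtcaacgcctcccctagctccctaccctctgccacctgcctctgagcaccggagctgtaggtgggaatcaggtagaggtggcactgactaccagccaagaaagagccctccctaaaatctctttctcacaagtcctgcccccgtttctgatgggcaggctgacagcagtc
Slc7a9: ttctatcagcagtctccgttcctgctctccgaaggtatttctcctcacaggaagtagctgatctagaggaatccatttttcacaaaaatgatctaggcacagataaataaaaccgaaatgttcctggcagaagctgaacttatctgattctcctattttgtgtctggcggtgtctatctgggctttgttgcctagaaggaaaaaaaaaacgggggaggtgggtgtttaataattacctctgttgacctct
Slc6a20b: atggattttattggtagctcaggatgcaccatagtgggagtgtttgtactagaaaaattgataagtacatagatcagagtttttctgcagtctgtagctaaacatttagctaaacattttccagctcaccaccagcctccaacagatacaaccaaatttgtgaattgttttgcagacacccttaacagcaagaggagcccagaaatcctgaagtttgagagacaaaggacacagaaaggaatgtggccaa
Slc7a1: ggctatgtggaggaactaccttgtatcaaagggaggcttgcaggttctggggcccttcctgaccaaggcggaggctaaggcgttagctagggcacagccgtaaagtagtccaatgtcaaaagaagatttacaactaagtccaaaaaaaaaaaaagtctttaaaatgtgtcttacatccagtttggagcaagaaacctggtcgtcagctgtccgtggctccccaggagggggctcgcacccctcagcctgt
Slc7a5: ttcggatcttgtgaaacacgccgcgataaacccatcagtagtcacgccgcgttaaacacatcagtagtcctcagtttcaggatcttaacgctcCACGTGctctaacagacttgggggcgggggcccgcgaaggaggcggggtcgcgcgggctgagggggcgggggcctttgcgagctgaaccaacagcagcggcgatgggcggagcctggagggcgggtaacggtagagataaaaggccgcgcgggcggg
Slc7a11: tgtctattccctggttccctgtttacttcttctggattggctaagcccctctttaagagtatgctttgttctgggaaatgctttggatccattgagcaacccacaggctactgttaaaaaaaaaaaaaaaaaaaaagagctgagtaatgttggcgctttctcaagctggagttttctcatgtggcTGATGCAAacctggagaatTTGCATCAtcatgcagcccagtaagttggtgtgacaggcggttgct
Slc38a1: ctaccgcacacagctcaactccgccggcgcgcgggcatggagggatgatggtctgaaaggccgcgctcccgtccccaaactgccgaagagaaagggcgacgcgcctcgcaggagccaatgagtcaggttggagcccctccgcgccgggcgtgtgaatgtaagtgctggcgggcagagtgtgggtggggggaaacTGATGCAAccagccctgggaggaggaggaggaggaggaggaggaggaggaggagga

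The windows of Slc38a3, Slc7a9, Slc6a20b and Slc7a1 held none of the 3 motifs. That of Slc7a5 held 1 E-box, at −157 from the transcript start, that of Slc7a11 held the ATF4 core at −65 and, on the other strand, at −46, and that of Slc38a1 held it at −56. E-boxes were also present in Slc36a1 (−11), Slc7a6 (−249) and Slc7a2 (−227 and −16).

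The diabetes comparison asks which carriers differed between diabetic and non-diabetic kidneys over both treatments. Slc38a3, which takes up glutamine across the basolateral membrane, rose most among the members called, with a log2 fold change of 1.10, and the arginine carrier Slc7a1 and Slc38a6 rose by less. Slc7a9, Slc6a20b and the imino acid carrier Slc6a20a, all taken as luminal, fell, as did Slc38a10. In all, 7 of 49 members (14.3%) had an adjusted p-value below 0.05, against 3.02% of the 25408 genes tested. Of these, 3 were higher (all genes 0.862%) and 4 lower (all genes 2.16%). With 14 libraries 13 members were called, 5 higher and 8 lower, against 9.82%, 4.6% and 5.21% of all genes, and the 13 included the 7. At an unadjusted p-value below 0.05 the members were 20, a share of 40.8% against 19.4%. The median log2 fold change of the members was 0.0033, beside 0.0072 over all genes, with 25 members higher and 24 lower.

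These calls have limits of their own. With the date in the library names as a numeric covariate, 0 members and 0 of all genes were called by edgeR, although 18 members and 2992 genes had an unadjusted p-value below 0.05. Leaving out single libraries gave between 0 calls (without ND_B12 2) and 11 (without ND_B12 4) among the members. In bulk kidney RNA, fewer cells of a type and less RNA per cell cannot be told apart.

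Among the luminal carriers, 3 of 9 were called and all 3 were lower, with a median log2 fold change of −0.12 beside the 0.0072 of all genes. Slc6a20b (chr9:123419865-123461630, minus strand) had 26612, 28592, 26183 and 27174 in ND_C, 29261, 27513, 28409.5 and 25170.5 in ND_B12, 24942, 20794, 23183 and 23881 in D_C and 22947, 24362, 21479 and 24431 in D_B12, each listed from replicate 1 to 4. By the labels, each of the 8 diabetic libraries was below each of the 8 non-diabetic ones. The highest diabetic count was 24942 in D_C 1 and the lowest non-diabetic count 25170.5 in ND_B12 4. With the genotypes that the published means give these libraries, the groups overlap. Without D_C 1 and ND_B12 4 the highest diabetic count was 24431 and the lowest non-diabetic count 26183. Slc6a20b was the only member without overlap between 8 and 8 labelled libraries, which 0.386% of all genes showed. Its log2 fold change was −0.24 ± 0.046 (SE, adjusted p = 0.0178 in edgeR), and with 14 libraries −0.27 ± 0.043 (SE, adjusted p = 0.00160 in edgeR). The call was lost only narrowly when ND_B12 2 was left out (adjusted p = 0.0501 in edgeR). In the deposited transcript table, however, the protein-coding transcript held 63.6% of the counts of Slc6a20b, and 83.8% in D_C 2 and 81.2% in D_B12 3 against 55.5% to 65.5% elsewhere. On coding transcripts alone, an alternative chosen after seeing the data, the log2 fold change was −0.062 (adjusted p = 0.516 in edgeR). Slc6a20b overlaps Sacm1l on the other strand, and counting is not stated to use strand.

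Slc6a20a (chr9:123463835-123508170, minus strand), the neighbouring and related gene, had 2761, 3206, 2886 and 2935 in ND_C, 3195, 3429, 3221 and 2931 in ND_B12, 2978, 2405, 3045 and 2931 in D_C and 2255, 2607, 2364 and 2615 in D_B12. All 4 D_B12 libraries were below the non-diabetic range, while D_C overlapped it. The log2 fold change was −0.22 ± 0.056 (SE, adjusted p = 0.0465 in edgeR) with 16 libraries and −0.25 ± 0.059 (SE, adjusted p = 0.0176 in edgeR) with 14. This call was lost when any 1 library other than D_C 1 and ND_B12 4 was left out (edgeR adjusted p from 0.0506 to 0.112), with upper-quartile normalization (0.0639) and on coding transcripts alone (0.0787). Slc6a20a and Slc6a20b shared 10.4% of their 50-base sequences, and reads from the shared stretches could be counted for either. Slc6a20a also overlaps Ccr9 and a pair of non-coding genes on the other strand.

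Slc7a9 (chr7:35147668-35165461, plus strand), whose product exchanges cystine and basic amino acids at the brush border, had 8139, 7254, 7596 and 8025 in ND_C, 7146, 8528, 9399 and 10036 in ND_B12, 7502, 4930.3, 6384 and 6585 in D_C and 5636, 6046, 6133 and 7097 in D_B12. Without D_C 1 and ND_B12 4 the 7 diabetic libraries (4930.3 to 7097) lay below the 7 non-diabetic ones (7146 to 9399), a pattern of 6 members (12.2%) and of 2.72% of all genes. Slc7a9 fell by 0.39 ± 0.083 (SE, adjusted p = 0.0227 in edgeR) on the log2 scale with 16 libraries, and the value with 14 was −0.40 ± 0.077 (SE, adjusted p = 0.00556 in edgeR). The call was lost when any 1 of ND_B12 2 and 3 or D_B12 1 and 3 was left out (edgeR adjusted p from 0.0513 to 0.0597). Retained-intron transcripts held 53.6% of the counts of this gene, and on coding transcripts alone the log2 fold change was −0.42 (adjusted p = 0.0913 in edgeR). Slc7a9 overlaps Gm42378 on the other strand.

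The remaining luminal carriers were not called with 16 libraries. Slc7a13 (chr4:19818725-19842218, plus strand) had 54850.1, 58189, 49923 and 58675 in ND_C, 63781, 65569, 56258 and 34152 in ND_B12, 55136, 22269.7, 49127 and 49572 in D_C and 42159, 42122, 29125 and 37649.9 in D_B12, with the lowest counts in D_C 2, D_B12 3 and, among non-diabetic libraries, ND_B12 4. Its log2 fold change was −0.44 ± 0.16 (SE, adjusted p = 0.154 in edgeR), and with 14 libraries −0.59 ± 0.15 (SE, adjusted p = 0.0247 in edgeR). Of the 5 markers of the last proximal segment, S3, some were low in the same libraries and others were not. Slc22a7, an organic anion carrier, was also lowest in ND_B12 4 (2038) and D_C 2 (2747), as was Cyp7b1 (4861 and 3498). Atp11a was lowest in ND_B12 4 (108074) and had 140736 in D_C 2, within the range of the other diabetic libraries (129662 in D_C 1 to 167556 in D_B12 4). Slc5a1 was highest of all libraries in D_C 2 (10130) and had 6517 in ND_B12 4, and Slc22a13 was lowest in neither. Their part in the values of Slc7a13 was not tested. Slc3a1 had 41860.1, 44151, 42466 and 47034 in ND_C, 45799, 44287, 45961 and 44259.6 in ND_B12, 41344, 32997, 47995 and 45190.5 in D_C and 39798, 42513, 38310.0 and 38603 in D_B12. D_C 2 was the lowest library, all D_B12 counts lay below all ND_B12 counts, and the log2 fold change over both treatments was −0.12 ± 0.063 (SE, adjusted p = 0.291 in edgeR). Slc6a18 had 31408, 29227, 27104 and 37360.3 in ND_C, 32684, 32302, 30484 and 28784 in ND_B12, 29772, 22201, 34768 and 30925 in D_C and 31406, 31357, 26972 and 27152 in D_B12. Its groups overlapped, again with D_C 2 lowest, and the log2 fold change was −0.090 ± 0.085 (SE, adjusted p = 0.611 in edgeR).

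Slc6a19, the main luminal carrier of neutral amino acids, varied widely within its groups. Slc6a19 had 24477, 25638, 24708 and 31955 in ND_C, 23914, 30234, 34253 and 54999.8 in ND_B12, 23348, 19740.1, 47257 and 38912 in D_C and 16605, 22734, 31718 and 32436 in D_B12. ND_B12 4 stood highest, D_C ranged from 19740.1 to 47257, and the log2 fold change was −0.100 ± 0.20 (SE, adjusted p = 0.840 in edgeR). Coding transcripts held between 8.33% (ND_C 1) and 73.8% (ND_B12 1) of its counts per library, with a retained-intron transcript holding 50.2% over all libraries. Slc1a1 was steadier, with 24408, 25154, 24553 and 23582 in ND_C, 26179, 23421, 22927 and 24208 in ND_B12, 20936, 23892, 23854 and 23824 in D_C and 23809, 24315, 24989 and 25316 in D_B12. D_C 1 was the lowest library, and the log2 fold change of Slc1a1 was −0.028 ± 0.040 (SE, adjusted p = 0.755 in edgeR). Slc36a2 had 0.68 ± 1.07 (SE) and is described with the adipocyte markers at the end.

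Slc34a1, the phosphate carrier of the early segments, was lower in diabetic kidneys, with a log2 fold change of −0.25 ± 0.048 (SE, adjusted p = 0.0178 in edgeR), and was the only called marker of 5 for the S1 and S2 segments of the proximal tubule. The summed S1 and S2 markers ran over 892721 to 965914 (ND_C), 914267 to 1015424 (ND_B12), 778693 to 960109.8 (D_C) and 829371 to 866182 (D_B12). For the 5 S3 markers, with 0 called, the sums were 180252 to 251437 (ND_C), 125586 to 251120.2 (ND_B12), 148479.5 to 179662 (D_C) and 152167 to 188769 (D_B12). Such sums mostly follow their most abundant genes. Atp11a alone made up most of each S3 sum, with 182921 of 211368 in ND_C 1. How far the amount of proximal tubule RNA entered the luminal carriers was not tested.

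**Figure D2:**
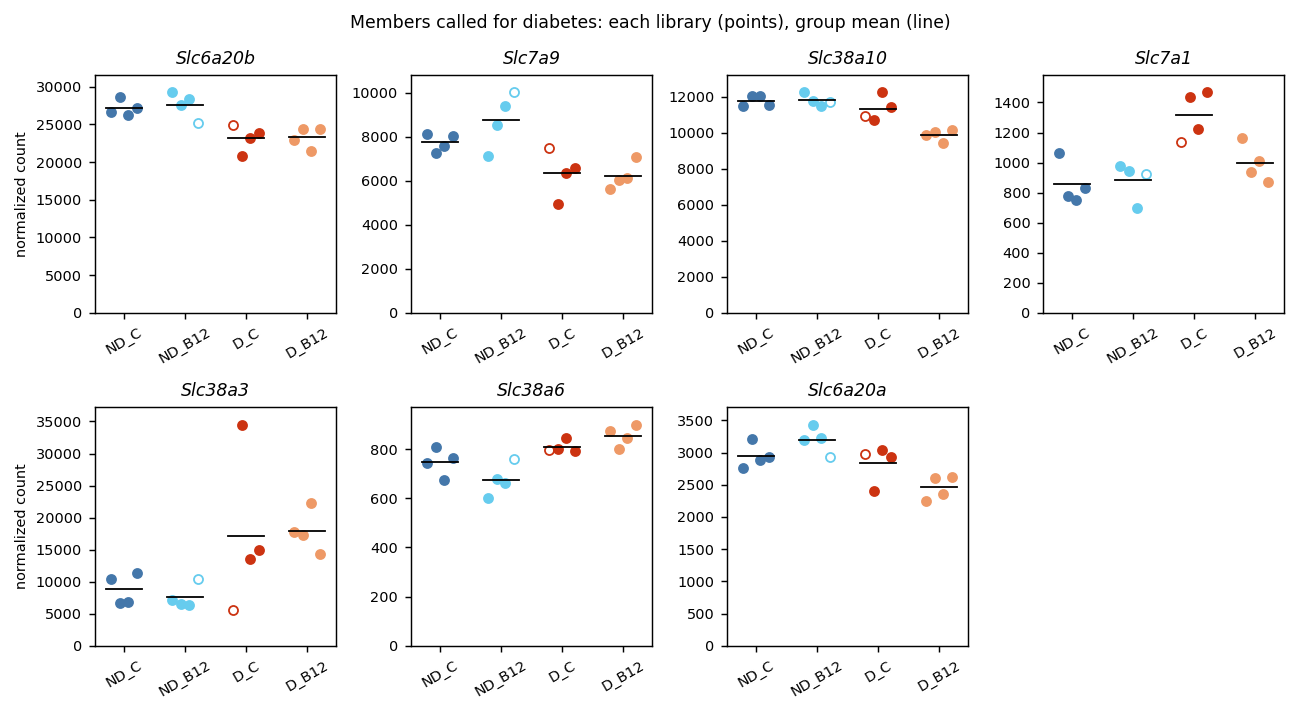
Normalized counts (linear axes from 0) of the 7 members called for diabetes, with a point for each of the 16 libraries, a line at each group mean of 4, and open points for D_C 1 and ND_B12 4. Slc6a20b separates the diabetic from the non-diabetic libraries by their labels, most narrowly between the open points. In Slc38a3 the open D_C 1 point lies with the non-diabetic libraries and D_C 2 far above the rest.

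Among 6 basolateral carriers, 1 was called and higher with 16 libraries and 3 were with 14, with a median log2 fold change of 0.17. Slc38a3 (chr9:107527815-107547018, minus strand) had 10441, 6616, 6751 and 11310.4 in ND_C, 7086, 6541, 6321 and 10399.9 in ND_B12, 5506, 34449, 13514 and 15004 in D_C and 17732, 17279, 22343 and 14320.5 in D_B12. D_C 1, with 5506, was the lowest of all 16 libraries, while the other 7 diabetic libraries (13514 to 34449) lay above each non-diabetic library, of which ND_C 4 was highest with 11310.4. Its log2 fold change was 1.10 ± 0.27 (SE, adjusted p = 0.0378 in edgeR), and with 14 libraries 1.34 ± 0.20 (SE, adjusted p = 0.00136 in edgeR). The call with 16 libraries was lost when any 1 of ND_C 1, 2 and 3, ND_B12 1, 2 and 3, D_C 2, 3 and 4 or D_B12 1, 2 and 3 was left out (edgeR adjusted p from 0.0502 to 0.0817), and without D_C 2 the log2 value was 0.81. Slc38a3 overlaps no other gene's exons.

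Slc43a2 (chr11:75421362-75477630, plus strand) had 19136, 17634, 19805 and 22559 in ND_C, 18857, 19036, 22478 and 33375 in ND_B12, 17278, 26137, 26770.0 and 26477 in D_C and 25851, 28172, 30133 and 26886 in D_B12. It passed the test only with 14 libraries, at 0.44 ± 0.060 (SE, adjusted p = 0.000647 in edgeR), where the 7 diabetic libraries began at 25851 and the 7 non-diabetic ended at 22559. With 16 libraries, ND_B12 4 was the highest and D_C 1 the lowest of all, and the log2 fold change was 0.26 ± 0.12 (SE, adjusted p = 0.233 in edgeR). With the date as a covariate it turned to −0.11. Slc7a8 (chr14:54959630-55019649, minus strand), a light chain for neutral amino acids, had 17004, 14999, 17502 and 18816 in ND_C, 17180.3, 15704, 18530.5 and 27906 in ND_B12, 12499, 18919, 20879.8 and 18461 in D_C and 21648, 21855, 20861 and 19689 in D_B12. The same libraries were its extremes, and the log2 fold change was 0.065 ± 0.12 (SE, adjusted p = 0.813 in edgeR) with 16 and 0.24 ± 0.057 (SE, adjusted p = 0.0169 in edgeR) with 14 libraries. The heavy chain Slc3a2 had 9708, 8558, 10016 and 9489.8 in ND_C, 8997, 9238, 10881 and 13969 in ND_B12, 8532, 11604, 10287 and 10312 in D_C and 10510.5, 11810.2, 12220.1 and 9461 in D_B12. Its groups overlapped, and the log2 fold change was 0.068 ± 0.091 (SE, adjusted p = 0.742 in edgeR). The other basolateral light chains differed in sign, with −0.26 ± 0.10 (SE, adjusted p = 0.181 in edgeR) for Slc7a7 and 0.33 ± 0.13 (SE, adjusted p = 0.165 in edgeR) for Slc7a6.

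Slc38a3 feeds glutamine to ammonia formation, and 5 genes of that route were taken beside it. None was called with 16 libraries, and 3 were higher at an unadjusted p-value below 0.05. Glutamate dehydrogenase, Glud1, had a log2 fold change of 0.43 ± 0.16 (SE, adjusted p = 0.145 in edgeR) and was called with 14 libraries, at 0.60 ± 0.12 (SE, adjusted p = 0.00632 in edgeR). For Pck1, which uses the remaining carbon for glucose, the value was 0.25 ± 0.17 (SE, adjusted p = 0.465 in edgeR). The sum of the 5 genes was highest in D_C 2 (776702), the library with the highest Slc38a3 count, and lay between 329519 and 544808 in the others.

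Of 9 carriers known to rise with amino acid shortage or ATF4, 1 was called and higher, and the median log2 fold change was 0.25. Slc7a1 (chr5:148264220-148336848, minus strand) had 1062, 780.3, 752 and 833 in ND_C, 980.4, 943, 696 and 925 in ND_B12, 1138, 1436, 1226 and 1468 in D_C and 1167, 939.6, 1010.5 and 871 in D_B12. Each D_C library was above each ND_C library, and D_B12 overlapped the non-diabetic range. The log2 fold change was 0.39 ± 0.094 (SE, adjusted p = 0.0358 in edgeR) over both treatments and 0.62 ± 0.13 (SE, adjusted p = 0.0377 in edgeR) in untreated kidneys alone, and 14 libraries gave 0.44 ± 0.10 (SE, adjusted p = 0.0155 in edgeR) and 0.68 ± 0.14 (SE, adjusted p = 0.0126 in edgeR). Over both treatments the call was lost when any 1 of ND_C 2, 3 and 4, ND_B12 1, 2 and 3, D_C 2 and 4 or D_B12 1, 2 and 3 was left out (edgeR adjusted p up to 0.0760). In untreated kidneys it was lost when any 1 of ND_C 2, 3 and 4, ND_B12 2, D_C 2, 3 and 4 or D_B12 2 was left out (edgeR adjusted p from 0.05002 to 0.120). With 14 libraries the serine and alanine carrier Slc1a4 and the glycine carrier Slc6a9, also of this list, were called and lower, at −0.44 ± 0.11 (SE, adjusted p = 0.0197 in edgeR) and −0.36 ± 0.085 (SE, adjusted p = 0.0180 in edgeR). Slc38a2, another glutamine carrier, had 0.25 ± 0.10 (SE, adjusted p = 0.190 in edgeR), Slc1a5 0.12 ± 0.12 (SE, adjusted p = 0.627 in edgeR) and Slc7a11 0.29 ± 0.28 (SE, adjusted p = 0.629 in edgeR). Among 13 genes of the integrated stress response, the program that ATF4 drives, 0 were called with 16 or with 14 libraries and 4 were higher at an unadjusted p-value below 0.05, namely Nupr1, Phgdh, Trib3 and Asns, with log2 fold changes of 0.62, 0.44, 0.54 and 0.25. Atf4 itself had −0.019 ± 0.15 (SE, adjusted p = 0.963 in edgeR).

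**Figure D3:**
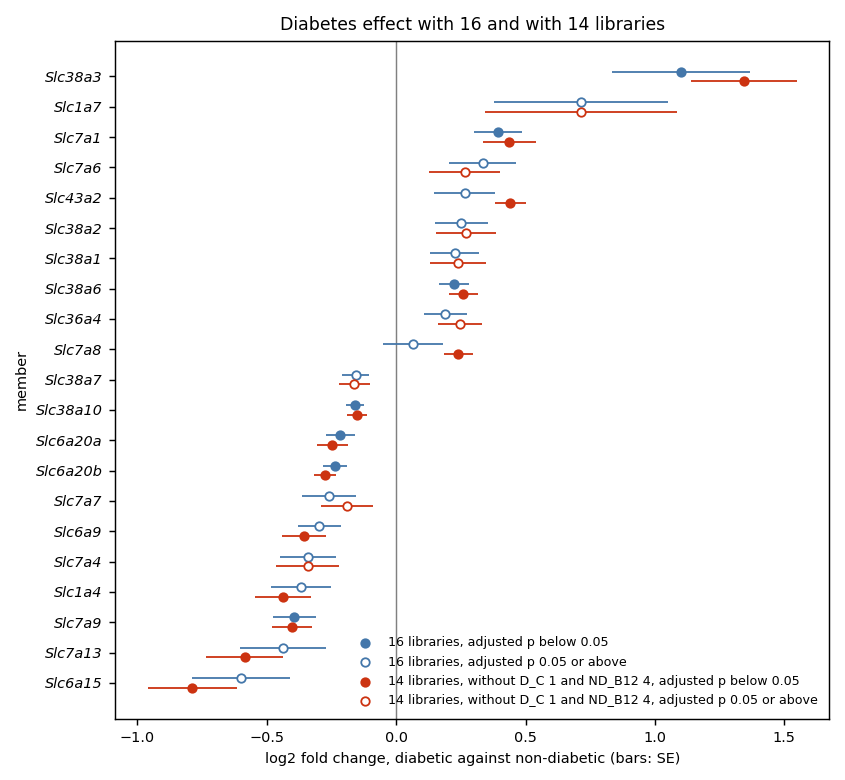
Log2 fold change of diabetic against non-diabetic kidneys (x axis, bars are SE) for the members with an unadjusted p-value below 0.05 with 16 libraries (blue) or called with 14 (red); filled points have an adjusted p-value below 0.05. Slc38a3, Slc43a2, Slc7a8, Slc7a13 and Slc6a15 moved away from 0 when D_C 1 and ND_B12 4 were left out, and no member changed sign.

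Carriers of other kinds were called too. Slc38a10 (chr11:119994770-120042189, minus strand) had 11459, 12012, 12044 and 11546 in ND_C, 12240.0, 11751, 11469.5 and 11711 in ND_B12, 10893, 10671, 12236 and 11428 in D_C and 9856, 10037, 9399 and 10168 in D_B12. The 4 D_B12 libraries were the lowest of all 16, and the log2 fold change over both treatments was −0.16 ± 0.036 (SE, adjusted p = 0.0293 in edgeR), with −0.15 ± 0.038 (SE, adjusted p = 0.0226 in edgeR) for 14 libraries. This call was lost when any 1 of ND_C 2 and 3, ND_B12 1, 2 and 3, D_C 2 or D_B12 1 and 3 was left out (edgeR adjusted p from 0.0532 to 0.0639). Slc38a6 (chr12:73333535-73400823, plus strand) had 745, 811, 673 and 763 in ND_C, 602, 678, 664 and 762 in ND_B12, 795, 801, 844 and 791 in D_C and 873, 802, 847 and 899 in D_B12. All ND_B12 counts were below all D_B12 counts, and over both treatments the log2 fold change was 0.22 ± 0.057 (SE, adjusted p = 0.0452 in edgeR), or 0.26 ± 0.057 (SE, adjusted p = 0.0112 in edgeR) with 14 libraries. That call was lost when any 1 library other than D_C 1 and ND_B12 4 was left out (edgeR adjusted p from 0.0527 to 0.0907). Slc38a10 overlaps Gm11769 and Slc38a6 overlaps Trmt5, each on the other strand.

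Slc6a15, a carrier of branched-chain amino acids and proline, had 2269, 3022, 2111 and 2289.9 in ND_C, 2213, 2118, 1985 and 1214 in ND_B12, 1903, 621, 1437 and 1409 in D_C and 1498, 1330.5, 1124 and 1982 in D_B12. D_C 2 was the lowest library, each D_C count was below each ND_C count, and the log2 fold change was −0.60 ± 0.19 (SE, adjusted p = 0.0914 in edgeR) with 16 and −0.79 ± 0.17 (SE, adjusted p = 0.0112 in edgeR) with 14 libraries. Slc7a4, a relative of the arginine carriers, had 303, 339, 298 and 287 in ND_C, 282, 251, 295 and 264 in ND_B12, 238, 162, 292 and 279 in D_C and 241, 198, 192 and 232 in D_B12. All D_B12 counts were below all ND_B12 counts, and the log2 fold change over both treatments was −0.34 ± 0.11 (SE, adjusted p = 0.0926 in edgeR). Slc38a4 had 184, 160.0, 216 and 266 in ND_C, 242, 306, 380.5 and 243 in ND_B12, 236, 99.6, 149 and 339 in D_C and 172, 152, 172 and 162 in D_B12. Here too D_B12 lay below ND_B12, at −0.83 ± 0.28 (SE, adjusted p = 0.145 in edgeR), while D_C overlapped each other group. Slc6a4, the serotonin carrier, had 290.2, 267, 248 and 620.0 in ND_C, 364, 445, 582 and 392 in ND_B12, 666, 181, 347 and 319.6 in D_C and 244, 263, 243 and 264 in D_B12. D_B12 was below ND_B12, at −0.82 ± 0.33 (SE, adjusted p = 0.224 in edgeR). Slc7a15 had at most 30.1 counts, with 5.33, 4.97, 5.66 and 0 in ND_C, 3.27, 7.94, 0 and 20.3 in ND_B12, 14.4, 17.9, 15.1 and 30.1 in D_C and 7.02, 4.54, 13.8 and 8.50 in D_B12. All D_C counts were above all ND_C counts, with a log2 fold change of 2.26 ± 0.79 (SE, adjusted p = 0.135 in edgeR) that rests on counts near 0.

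The lysosomal carriers held no call. Slc36a1, which exports small amino acids with protons, had 9594, 10331, 10059 and 10262 in ND_C, 9109, 9833, 10496 and 10234 in ND_B12, 8724, 7342, 9762 and 8738 in D_C and 10528, 10487, 9223 and 11541 in D_B12. Its log2 fold change for diabetes was −0.074 ± 0.057 (SE, adjusted p = 0.517 in edgeR). Slc38a7, a lysosomal glutamine carrier, had 1530.0, 1622, 1569 and 1445 in ND_C, 1845, 1764, 1629 and 1666 in ND_B12, 1392, 1238, 1588 and 1398 in D_C and 1489, 1536, 1413 and 1671 in D_B12. The groups overlapped over both treatments, at −0.16 ± 0.053 (SE, adjusted p = 0.115 in edgeR). Slc36a4 and the amino acid sensor Slc38a9 had 0.19 ± 0.082 (SE, adjusted p = 0.218 in edgeR) and −0.027 ± 0.044 (SE, adjusted p = 0.798 in edgeR). Of the other family Slc6 carriers, 3 of 9 passed the count minimum (Slc6a4, Slc6a8 and Slc6a13) and 0 were called. Slc6a8, the creatine carrier, had 20375, 19527, 22002 and 20849 in ND_C, 17775, 21137, 21576 and 28690.3 in ND_B12, 18062, 22775, 23253 and 20254 in D_C and 20252, 23069, 26362 and 23740.0 in D_B12. Its highest count was in ND_B12 4, and the log2 fold change was 0.045 ± 0.087 (SE). The GABA carrier Slc6a13 had −0.037 ± 0.063 (SE, adjusted p = 0.802 in edgeR).

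The remaining members Slc7a12, Slc1a2, Slc1a3, Slc6a14, Slc38a11, Slc1a7, Slc7a3 and Slc6a7 were not called for diabetes. Slc7a12, at 524 ± 298 normalized counts per kb, was the most abundant of them, and the other 7 ranged from 2.87 (Slc6a7) to 84.1 (Slc1a2). Their log2 fold changes lay between −0.74 (Slc6a7) and 0.72 (Slc1a7, a glutamate carrier, unadjusted p = 0.0493 and adjusted p = 0.256 in edgeR).

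Genes that work with the carriers were read from lists beside them. Of 3 luminal partners, Cltrn, the collectrin that brings Slc6a19 and its relatives to the brush border, was called and lower, with a log2 fold change of −0.20 ± 0.049 (SE, adjusted p = 0.0422 in edgeR). The peptidase Anpep had 0.23 ± 0.099 (SE, adjusted p = 0.206 in edgeR). Of 11 amino acid and peptide carriers of other families, 0 were called with 16 or 14 libraries. Of 20 genes of amino acid breakdown and synthesis, 3 were called and all were lower. They included Ass1, which makes the precursor of arginine, with −0.43 ± 0.074 (SE, adjusted p = 0.0121 in edgeR), and Fah, the last enzyme of tyrosine breakdown, with −0.29 ± 0.063 (SE, adjusted p = 0.0267 in edgeR).

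Among the marker lists of other cells, 2 of 6 immune markers were called for diabetes and lower, Cd74 at −0.62 ± 0.11 (SE, adjusted p = 0.0149 in edgeR) and C1qa at −0.47 ± 0.12 (SE, adjusted p = 0.0382 in edgeR). The collecting duct water channel Aqp2, 1 of 4 principal cell markers, was higher at 1.14 ± 0.27 (SE, adjusted p = 0.0348 in edgeR). Of 4 tubule injury markers Vcam1 was called, and lower, at −0.35 ± 0.083 (SE, adjusted p = 0.0358 in edgeR). The list did not move in 1 direction, with a median log2 fold change of 0.12. At an unadjusted p-value below 0.05, 1 of its markers was higher and 2, with Vcam1, were lower. No marker of the thick ascending limb, distal convoluted tubule, intercalated cell, podocyte, endothelium, adipocyte, skeletal muscle, adrenal or urothelium lists was called over both treatments with 16 libraries. Summed immune markers ran over 15979 to 20106 (ND_C), 10092 to 15396 (ND_B12), 8401 to 15629 (D_C) and 8515 to 9854 (D_B12). Cd74 alone made up most of each immune sum, with 16822 of 20106 in ND_C 1. The part of these markers in the members' values was not tested.

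Within each treatment, as labelled, the diabetes comparison had fewer calls. By the match of the published means, D_C 2, 3 and 4 would be B12-treated and all D_B12 libraries untreated. In untreated kidneys 1 member (2.04%) was called, Slc7a1, against 1.66% of all genes, and 9 were with 14 libraries, against 8.21%. The 9 were higher for Slc38a3 (1.26 on the log2 scale), Slc7a5, Slc7a1, Slc36a4, Slc43a2 and Slc43a3 (0.32) and lower for Slc6a20b (−0.26), Slc7a9 and Slc6a15 (−1.07). In B12-treated kidneys 2 members (4.08%), Slc38a10 and Slc6a20a, were called against 0.823%, and 7 against 2.69% with 14 libraries. The 7 were higher for Slc38a3 (1.43), Slc43a2 (0.46) and Slc38a6 (0.40) and lower for Slc38a10, both Slc6a20 genes and Slc1a4 (−0.66). With 16 libraries, Slc38a10 was at −0.26 ± 0.050 (SE, adjusted p = 0.0387 in edgeR) and Slc6a20a at −0.38 ± 0.079 (SE, adjusted p = 0.0418 in edgeR) there. The former call was lost when any 1 of ND_C 1, 2 and 3, ND_B12 1, 2 and 3, D_C 4 or D_B12 1, 2, 3 and 4 was left out (edgeR adjusted p from 0.0511 to 0.150), and the latter when any 1 of ND_C 1, 2 and 3, ND_B12 1, 2 and 3, D_C 3 and 4 or D_B12 1, 2, 3 and 4 was left out (edgeR adjusted p from 0.0539 to 0.163). On coding transcripts alone their adjusted p-values were 0.0915 and 0.142. Beside the calls in untreated kidneys, 1 of 5 endothelium markers was called and higher (Flt1, a VEGF receptor, at 0.32 ± 0.070 (SE, adjusted p = 0.0408 in edgeR)) and all 5 were higher at an unadjusted p-value below 0.05, and 2 of 4 principal cell markers, Aqp2 and Aqp3, were called and higher. The endothelium sums were 21633 to 24467 in ND_C and 27176 to 31805 in D_C, those of the principal cell 11775 to 15807 and 18026 to 38983, and their part in the members' values was not tested. The groups did not overlap for 6 members (12.2%) in untreated kidneys, against 9.44% of all genes, and for 10 (20.4%) in B12-treated kidneys, against 11.7%.

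**Figure D4:**
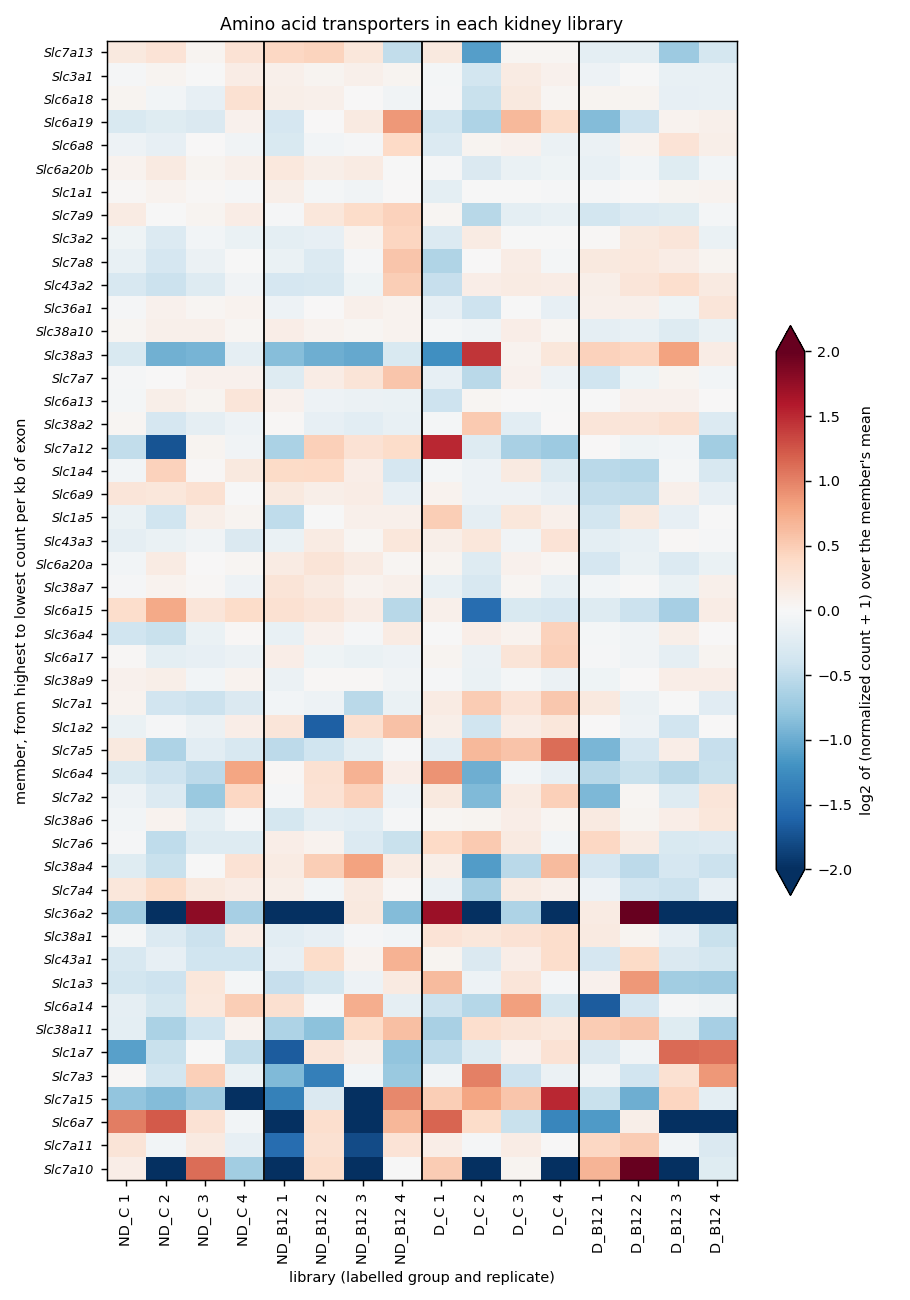
Log2 of (normalized count + 1) over the member's mean, for 49 members (rows, from highest to lowest level per kb) in 16 libraries (columns, by labelled group); red is above and blue below the mean, and colors are cut at 2 and −2. Slc38a3 is blue in the non-diabetic libraries and D_C 1 and red in the other diabetic libraries, and the columns of D_C 2 and ND_B12 4 differ from their neighbours in several members.

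The comparison of D_B12 with D_C asks which carriers differed with B12 among diabetic kidneys, by the labels. No member was called with 16 libraries, as 0% of all genes were, and the smallest adjusted p-value of a member in edgeR was 0.119. At an unadjusted p-value below 0.05, 8 members (16.3%) stood against 13.6% of all genes, 1 higher (2.04% against 6.44%) and 7 lower (14.3% against 7.21%). DESeq2 called 3 members (1 higher and 2 lower) among 681 of all genes. The median log2 fold change of the members was −0.15, beside −0.00044 over all genes. By the match of the published means described above, D_C 2, 3 and 4 and all D_B12 libraries would trade labels.

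Slc7a5, the large neutral amino acid carrier that pairs with Slc3a2, had 323, 184, 242 and 226 in ND_C, 195, 213, 248 and 278 in ND_B12, 244, 441, 421 and 609.9 in D_C and 148, 223, 309.9 and 204 in D_B12. It was singled out after its values were seen, as the only member called in this comparison with 14 libraries, where 0.842% of all genes were. D_C 2, 3 and 4 were above every other library, and D_C 1 lay within the range of the rest. Its log2 fold change was −0.95 ± 0.26 (SE, adjusted p = 0.135 in edgeR) with 16 libraries and −1.14 ± 0.23 (SE, adjusted p = 0.0385 in edgeR) with 14. Against ND_C the D_C libraries gave 0.81 ± 0.26 (SE, adjusted p = 0.103 in edgeR), and 1.01 ± 0.23 (SE, adjusted p = 0.0180 in edgeR) with 14 libraries. Slc7a1 and Slc38a1, which carry arginine and glutamine, had −0.40 ± 0.13 (SE, adjusted p = 0.198 in edgeR) and −0.36 ± 0.14 (SE, adjusted p = 0.250 in edgeR). Slc38a1 had 414, 354, 316 and 472 in ND_C, 368, 381, 422 and 411 in ND_B12, 517, 499, 522 and 546 in D_C and 482, 442, 382 and 312 in D_B12. Each D_C count was above each count of ND_C and of D_B12, and for D_C against ND_C the log2 fold change was 0.42 ± 0.14 (SE, adjusted p = 0.110 in edgeR).

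Slc43a3, a nucleobase carrier of a family otherwise known for amino acids, had 1934, 1982, 2075 and 1795 in ND_C, 1987, 2433, 2245 and 2565 in ND_B12, 2373, 2557, 2087 and 2637 in D_C and 1909, 1962, 2219.7 and 2158 in D_B12. D_C lay above ND_C, at 0.31 ± 0.088 (SE, adjusted p = 0.0769 in edgeR), and overlapped D_B12, with −0.23 ± 0.088 (SE, adjusted p = 0.267 in edgeR). For Slc38a10 the D_B12 counts were below the D_C counts, at −0.20 ± 0.050 (SE, adjusted p = 0.119 in edgeR), and for Slc6a20a the difference was −0.21 ± 0.079 (SE, adjusted p = 0.258 in edgeR). Slc36a1 was the member with the 1 higher value, 0.27 ± 0.081 (SE, adjusted p = 0.156 in edgeR), and its D_C and D_B12 counts overlapped. For Slc6a17 the value was −0.24 ± 0.10 (SE, adjusted p = 0.322 in edgeR). The groups did not overlap for 3 members (6.12%), against 6.58% of all genes, namely Slc38a10, Slc38a1 and Slc7a15. With 4 libraries against 4, an exact permutation test cannot give a p-value below 0.0286.

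The role lists showed the same absence of calls. With 16 libraries 0 of 9 luminal, 0 of 6 basolateral, 0 of 9 shortage-responsive and 0 of 4 lysosomal carriers were called for B12 in diabetic kidneys, with median log2 fold changes of −0.027, 0.091, −0.16 and 0.12. Of the stress response, ammonia and breakdown genes 0 were called.

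**Figure D5:**
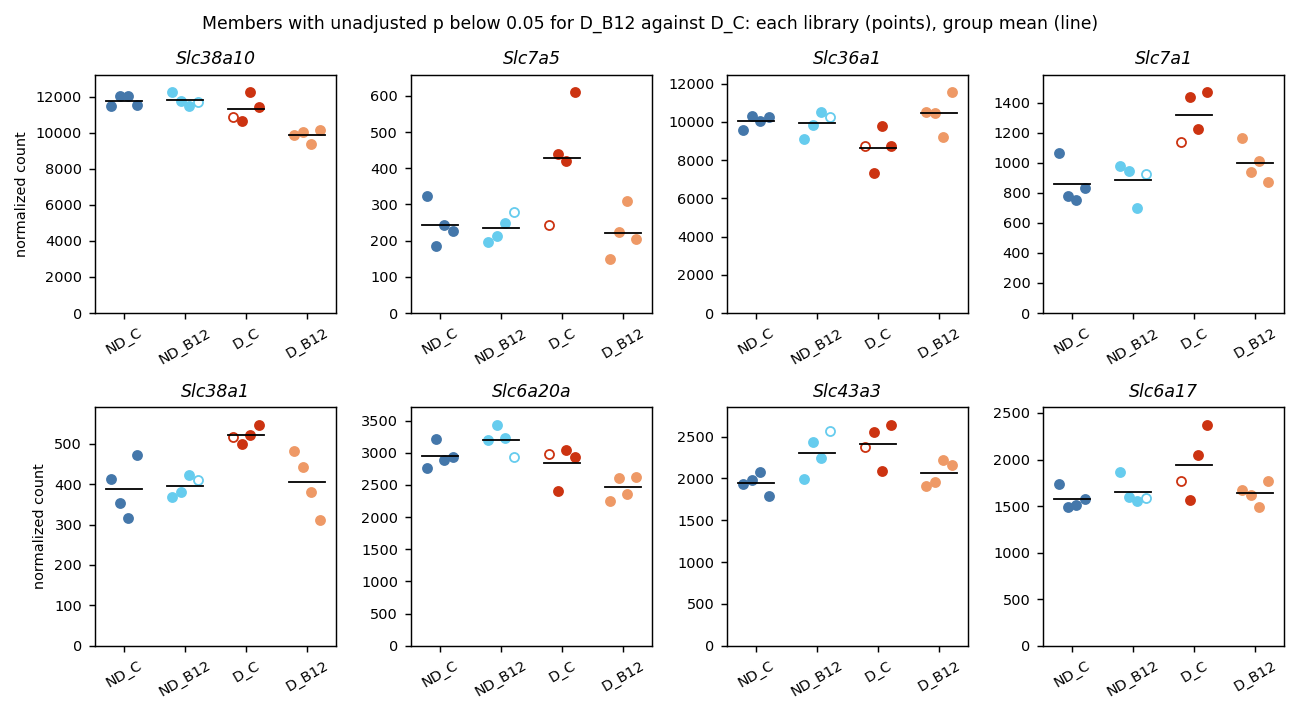
Normalized counts (linear axes from 0) of the 8 members with an unadjusted p-value below 0.05 between D_B12 and D_C, with a point for each library, a line at each group mean of 4, and open points for D_C 1 and ND_B12 4. Slc7a5 is high in D_C 2, 3 and 4 alone, and in Slc38a10 and Slc38a1 all D_C points lie above all D_B12 points.

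In non-diabetic kidneys, as labelled, 0 members were called for B12 by edgeR (0% of all genes) and 0 by DESeq2 (6 of all genes). By the match of the published means, ND_C 3 and ND_B12 1 would trade labels, and D_C 1 would replace ND_B12 4. At an unadjusted p-value below 0.05, 4 members (8.16%) stood against 7.62% of all genes, and all 4 were higher. They were Slc43a1, which carries large neutral amino acids, with 0.61 ± 0.21 (SE, adjusted p = 0.585 in edgeR), Slc43a3 with 0.25 ± 0.088 (SE, adjusted p = 0.585 in edgeR), Slc38a7 with 0.17 ± 0.076 (SE, adjusted p = 0.638 in edgeR) and Slc36a4 with 0.25 ± 0.12 (SE, adjusted p = 0.646 in edgeR). Slc38a7 was the only member whose ND_B12 counts all lay above the ND_C counts (2.04%, all genes 4.81%).

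Whether the B12 difference itself differed between diabetic and non-diabetic kidneys was tested as an interaction of the labelled groups, which the match of the published means would also change. It was called for 0 members with 16 libraries (0% of all genes) and for 0 with 14 (0.327%). At an unadjusted p-value below 0.05, 10 members (20.4%) stood against 16.1% of all genes, and DESeq2 called 1 member among 923 of all genes. Slc43a3 had the smallest p-value, with an interaction of −0.48 ± 0.12 (SE, adjusted p = 0.0930 in edgeR). Of the 10, the 7 with a negative value were Slc43a1, Slc43a3, Slc7a1, Slc7a5, Slc36a4, Slc6a20a and Slc38a10 (from −0.89 for Slc7a5 to −0.20 for Slc38a10), and the 3 with a positive value were Slc6a13, Slc36a1 and Slc38a9 (0.22 to 0.29).

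Slc36a2, a proline and glycine carrier, and Slc7a10, a carrier of small neutral amino acids, are both also known from adipocytes. Slc36a2 had 72.5, 0, 410.0 and 73.9 in ND_C, 7.64, 10.9, 134 and 63.8 in ND_B12, 387, 4.70, 76.4 and 0 in D_C and 132, 502, 6.44 and 0 in D_B12. Slc7a10 had 16.0, 0, 32.9 and 8.64 in ND_C, 0, 18.9, 0 and 14.5 in ND_B12, 21.2, 1.88, 15.1 and 1.72 in D_C and 24.1, 64.4, 1.84 and 12.2 in D_B12. Adipoq, the adiponectin gene that adipocytes alone are known to express at high level, was high in the same 3 libraries as Slc36a2, with 1009 in ND_C 3, 749 in D_C 1 and 1108 in D_B12 2, and at most 388 in the others. It was 0 in ND_C 2, D_C 4, D_B12 3 and D_B12 4, where Slc36a2 counted at most 6.44. Slc7a10 was also highest in D_B12 2 and ND_C 3, but followed Adipoq less closely. Its count was 0 in ND_B12 3, where Adipoq had 388, and 12.2 in D_B12 4, where Adipoq was 0. The 5 adipocyte markers summed to 23.9 to 6951 (ND_C), 52.4 to 1954 (ND_B12), 25.8 to 5043 (D_C) and 17.0 to 5203 (D_B12). Their part in the counts of both carriers was not tested, and neither carrier was called in any comparison.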

How the data were processed

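Kidney RNA of 16 mice was sequenced as paired 50-base reads. The authors aligned reads to GRCm39 with STAR against GENCODE vM35 and assembled abundances with StringTie. The deposited values are estimated counts per gene and per transcript from its prepDE script, which are not adjusted for depth, and strand-specific counting is not given in the sources used here. They held whole numbers. Each gene with at least 100 counts over 16 libraries was tested (25408 of 57186) in edgeR 4.0.16 (R 4.3.3) with TMM normalization and quasi-likelihood tests in 1 model of 4 groups, Benjamini-Hochberg adjustment over all tested genes and a threshold of 0.05. The biological coefficient of variation was 0.2008 with 12 residual degrees of freedom. Between libraries, r of log values was 0.972 to 0.985. Printed levels are counts over median-of-ratios size factors, computed with DESeq2 1.42.0, which also served as an alternative test. Exon lengths, positions and promoters came from GENCODE vM39 on GRCm39. Figures used matplotlib 3.10.9. The models were also run on simulated data with the same spread for every gene and no date effect or exchanged labels. That run cannot show whether the calls given here hold, and nothing is concluded from it.

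Members, role lists and marker lists were chosen with earlier results of these data known. Values in every library are given for 25 members. They are those called, those with an unadjusted p-value below 0.05 and no overlap between groups in a comparison, and those of highest level. Slc7a5, Slc43a1, Slc6a17, Slc36a2, Slc7a10, Slc7a12, Slc1a7 and other low members fall outside this rule and were named after their values were seen. Alternatives were other normalizations, filters and tests, a date covariate, a replicate block, single libraries left out, 14 libraries and, added after seeing the data, coding transcripts alone. Protein sequences were not used here. Some genes of the lists are not reported here.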

Additional observations from a re-analysis of the deposited data

Results flagged for a closer look

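Each of the 25 members described was checked for a single library far from the other 3 of its group, in 100 groups of 4. There, 5 stood out, the share that chance gives, about 1 in 20. In ND_C 4, Slc7a15 had 0 normalized counts (others 4.97 to 5.66), Slc6a4 had 620.0 (248 to 290.2) and Slc6a19 had 31955 (24477 to 25638). In D_C 1, Slc1a1 had 20936 (others 23824 to 23892) and Slc43a2 had 17278 (26137 to 26770.0). D_C 1 is 1 of the 2 libraries whose genotype differed between the labels and the match to published means.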

How the results depend on the processing

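Of 7 members called for diabetes over both treatments (767 of all genes), DESeq2 gave 10 (1832 genes), upper-quartile normalization 6 (690), a filter for expression by group 7 (794), a minimum of 1 count 3 (427 of 40826 tested), a date covariate 0 (0), 14 libraries 13 (2495) and coding transcripts alone 4 (404 of 15587). The 1 call in untreated kidneys (423 genes) became 6 with DESeq2 (1603), 0 with a minimum of 1 count (63), 0 with the date covariate (2), 9 with 14 libraries (2087) and 0 with the compared groups fitted alone (182). The 2 calls in B12-treated kidneys (209 genes) became 6 with DESeq2 (1146), 0 with upper-quartile normalization (18), 0 with a minimum of 1 count (35), 1 with the date covariate (29), 7 with 14 libraries (684) and 0 on coding transcripts (4). The 1 member called with the date covariate was neither of the 2. The compared groups fitted alone gave 3 (191), of which 1 was among the 2. For B12 in diabetic kidneys, 0 calls (0 genes) became 3 with DESeq2 (681), 1 with the date covariate (204) and 1 with 14 libraries (214), and the interaction's 0 (0 genes) became 1 with DESeq2 (923) and 1 with the date covariate (753). B12 in non-diabetic kidneys stayed at 0 members in each alternative. Coding transcripts alone were chosen after seeing the data.

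The replicate numbers did not pair the libraries (r of same-numbered deviations −0.183 to 0.168, with 5 of 16 libraries closest to their own number). With the replicate block, 3 members were called for diabetes over both treatments (478 genes), 1 in untreated (269) and 0 in B12-treated kidneys (25), and 0 for B12 or the interaction.

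Leaving out single libraries gave 0 (without ND_B12 2) to 11 (without ND_B12 4) calls over both treatments, 0 to 6 (without D_C 1) in untreated kidneys, 0 to 5 (without D_C 1 or D_C 2) in B12-treated kidneys, 0 for B12 in either genotype and 0 to 1 (without ND_B12 1) for the interaction. Among 1157 recomputed values for 47 pairs of a member and a comparison, 990 kept direction and side of the threshold, 128 lost and 38 gained the call, and 1 turned, Slc43a2 for diabetes with the date covariate (−0.11 on the log2 scale). The causes were not tested.

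No B12 difference of a member passed the edgeR test with 16 libraries. The 8 members with fewer than 50 normalized counts rest on the least depth.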
